A study of Mus musculus with 6 samples.

Results

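The matrix-degrading metalloproteinases and their inhibitors were followed in skin of mice given osimertinib. Genes were taken by symbol from the deposited gene table: the matrix metalloproteinases (Mmp), the tissue inhibitors of metalloproteinases (Timp), the ADAMTS proteases and the ADAMTS-like proteins. The table held 48 such genes among 33308, namely 20 Mmp, 4 Timp, 19 Adamts and 5 Adamtsl genes. RNA-seq of whole mouse skin compared 3 untreated controls with 3 samples from mice treated with osimertinib, a lung cancer drug that blocks the epidermal growth factor receptor (EGFR), for 42 days. The labels give no strain, age, sex, dose or skin site, and do not state that each sample is a different animal. The p-values therefore measure only how these samples vary, and part of that variation may be technical. The series names skin problems caused by osimertinib as its subject.

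Matrix metalloproteinases are zinc-dependent enzymes that are made as inactive precursors and cut collagens, elastin, laminins and other proteins of the extracellular matrix. The TIMPs bind their active site and block them. ADAMTS enzymes are secreted relatives that cut proteoglycans such as versican, trim the ends of procollagens or act on fibrillin microfibrils, while ADAMTS-like proteins lack the catalytic domain. In skin these genes are known for wound repair, for the remodelling of dermis around the hair follicle as it grows and regresses, and for loss of dermal matrix in inflammation.

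Library totals ran from 54112624 to 60719064 counts. Levels are given as CPM, that is counts scaled to library size, with TMM scaling, and levels of different genes are compared only as FPKM, which is per length. A count of 0 allows up to 3 counts, or 0.0467 to 0.0663 CPM in these libraries, for counting error only. The label of skin held: basal keratinocyte markers such as Krt5 and Krt14 summed to 9391 CPM or more in every library, and fibroblast markers such as Col1a1 to 1543 CPM or more. The libraries differed in skeletal muscle, whose 24 markers summed to 297 CPM in control 3 and to between 42860 and 177200 CPM in the other libraries.

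Treated skin had much more transcript of Mmp12 and Mmp11, less of Timp3, Adamtsl4 and Timp2, and a mixed pattern elsewhere. Of the 48 genes, 22 averaged at least 1 FPKM across the 6 libraries and were tested. The log2 fold change was above 0 in 9 of them and below 0 in 13, against 45.3% of all genes tested above 0. None of the 22 passed the adjusted threshold of 0.05 in edgeR's quasi-likelihood test, in which 0% of the 13498 genes tested passed. At an unadjusted p below 0.05 edgeR gave 7 of the 22, against 14.0% of all genes tested. These were 4 higher and 3 lower, against 7.22% and 6.73%. DESeq2 called 3, with Mmp11 and Mmp12 higher and Timp3 lower, against 6.36% of all genes. The 3 treated values lay all above the 3 control values in 3 of the 22 genes (Mmp11, Mmp12, Adamts10), against 11.3% of all genes tested, and all below in 4 (Timp3, Adamtsl4, Timp2, Mmp15), against 9.38%. Groups were thus apart in 7 of 22, against 20.7% of all genes. Without control 1, 2 or 3 it was 7, 8 or 9 of 22, against 23.5%, 46.3% or 34.5% of all genes with the same 5 libraries. Without osimertinib 1, 2 or 3 it was 9, 12 or 10 of 22, against 30.0%, 26.3% or 28.9%. The median log2 fold change of the 22 was -0.12, against -0.045 for all genes tested. The sign of the member median turned under 4 of the 16 alternatives. These included a looser filter and no filter, both of which took in members beyond the 22. Among the 22, Mmp12 and Mmp13 had a control mean below 1 FPKM and entered through their treated values, so their being higher was in part required by the filter.

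**Figure D1:**
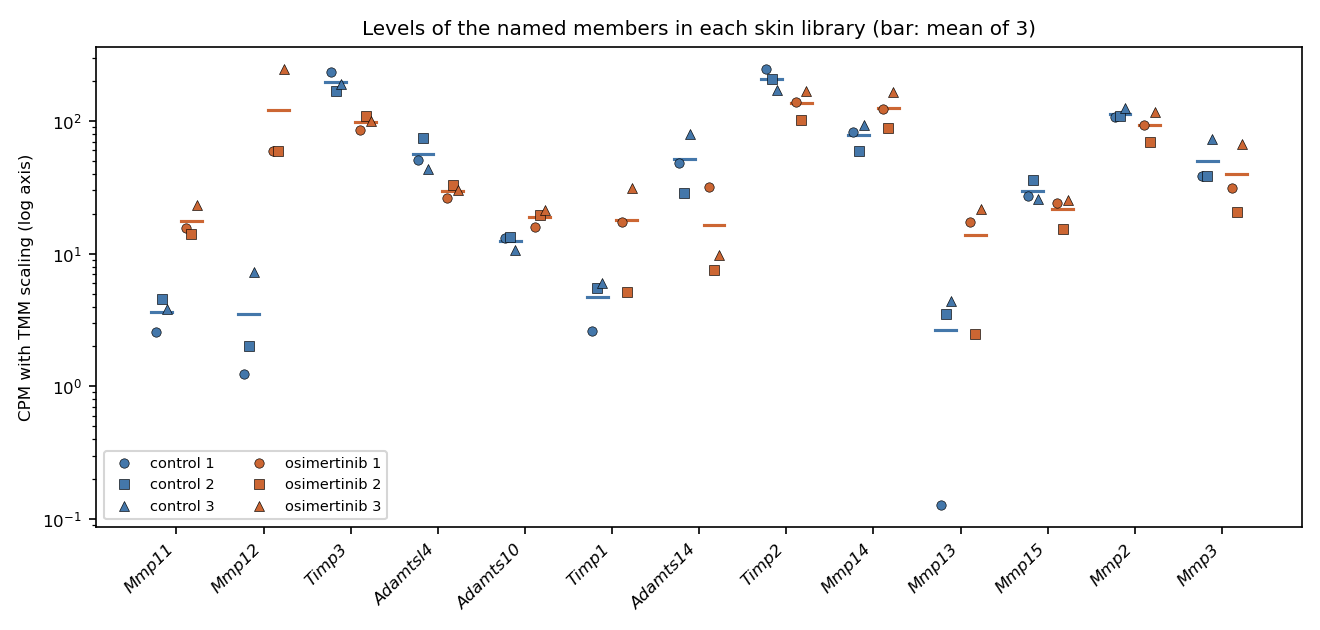
Levels of the 13 genes named by rule in each of the 6 skin libraries, as CPM with TMM scaling on a log axis, with controls in blue, osimertinib in orange, a marker shape for each replicate number and a bar at the mean of 3. The groups are separate for Mmp11, Mmp12, Timp3, Adamtsl4 and Adamts10, and nearly touch for Timp2 and Mmp15.

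Mmp12 had the largest difference of all 22. It encodes macrophage metalloelastase, which cuts elastin. Its level was 1.24, 2.01 and 7.28 CPM in controls 1, 2 and 3, and 59.0, 59.0 and 247 CPM in osimertinib 1, 2 and 3. Every treated library was above every control, and osimertinib 3 stood far above the other treated samples. The means were 3.51 ± 3.29 and 122 ± 109 CPM (SD, n = 3 per group), a 34.6-fold difference, with a log2 fold change of 5.11 ± 1.01 (SE, adjusted p = 0.19 in edgeR). Leaving out single libraries gave 4.10 without osimertinib 3 to 6.21 without control 3. DESeq2 gave an adjusted p of 5.47e-08, and over all 16 alternatives the adjusted p from edgeR, limma or DESeq2 ran from that value to 0.672. In whole skin, more cells of a type and more RNA per cell cannot be told apart, here or for the genes that follow.

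Myeloid markers did not follow a single pattern beside Mmp12. The 10 macrophage markers summed to 350 to 372 CPM in the controls and to 423, 219 and 844 CPM in osimertinib 1, 2 and 3. Of these markers 3 of 10 had a higher mean in treated skin, and none separated the groups upwards. Osimertinib 2 had the lowest macrophage sum of all 6 libraries, and the same Mmp12 level as osimertinib 1. The scavenger receptor Cd163 was lower in treated skin, at 12.3, 5.86 and 14.7 CPM against 20.0 to 27.6 CPM in controls. Lyz2, the lysozyme of myeloid cells, was at 184, 106 and 488 CPM against 93.4 to 118 CPM. The 10 neutrophil markers in the table summed to 1.37 to 23.4 CPM in the controls and 69.5 to 579 CPM in treated skin, with 8 of 10 higher. S100a8 and S100a9, which keratinocytes can also make, held most of that sum. The 3 of these markers that were tested, S100a8, S100a9 and Clec4d, each had every treated sample above every control, against 11.3% of all genes tested. DESeq2 called all 3 higher, against 3.41% of all genes. Most of the mean by which these 3 passed the filter came from treated values, so their being higher may be in part required by it. The markers that were not tested all overlapped between the groups. Clec4d, a lectin receptor of myeloid cells, was at 0.146, 0.707 and 1.02 CPM in the controls and 3.997, 2.01 and 17.45 CPM in treated skin. Of the defining neutrophil genes, Ly6g and Ltf were at 0 in all controls and Mpo at 0 in all treated libraries. In treated skin Ly6g had counts in osimertinib 3 alone, at 0.179 CPM. Ltf was at 0, 0.109 and 1.79 CPM in osimertinib 1, 2 and 3. Mpo and Elane had lower means in treated skin, and Csf3r, Cxcr2 and Camp overlapped between the groups. The part of these cells in the Mmp12 difference was not tested.

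**Figure D2:**
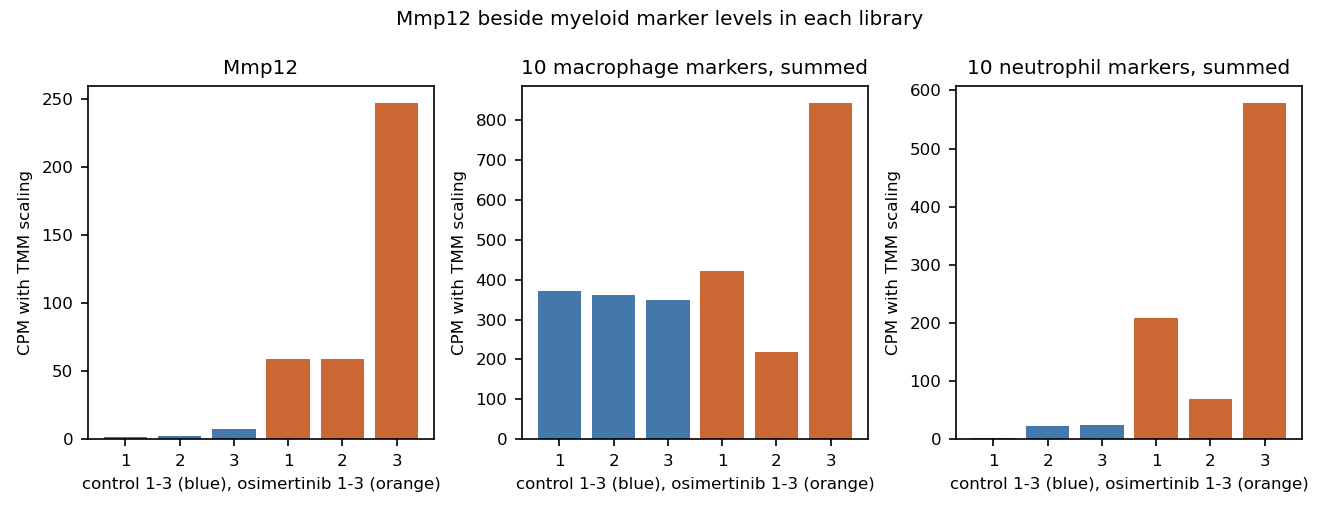
Mmp12, the summed macrophage markers and the summed neutrophil markers in each library, in CPM with TMM scaling, with 1 bar per library, controls in blue and osimertinib in orange. Osimertinib 2 has Mmp12 at 59.0 CPM with the lowest macrophage sum, 219 CPM.

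Mmp11 was more even among the treated samples than Mmp12. It encodes stromelysin-3, an enzyme of stromal cells that furin activates inside the cell. The controls held 2.56, 4.60 and 3.81 CPM and the treated samples 15.6, 14.2 and 23.2 CPM. The lowest treated sample was well above the highest control. The means of 3.65 ± 1.03 and 17.6 ± 4.84 CPM (SD, n = 3 per group) differed 4.83-fold, with a log2 fold change of 2.27 ± 0.33 (SE, adjusted p = 0.145 in edgeR). Single libraries left out moved it between 2.04 and 2.49. The adjusted p ran from 2.59e-07 in DESeq2 to 0.501 over the 16 alternatives. The gene spans chromosome 10, 75923222 to 75936496 (GRCm38, minus strand), and 3367 bases of it overlap Chchd10 on the other strand. Chchd10, a mitochondrial protein gene, followed another pattern, with 107, 353 and 5.86 CPM in the controls and 180, 98.8 and 180 CPM in treated skin, with an edgeR log2 fold change of -0.02 ± 1.15 (SE). Transcripts of the growing follicle were higher beside Mmp11: 11 hair shaft, sheath and matrix markers summed to 34.4, 287 and 41.8 CPM in the controls and to 1207, 4976 and 928 CPM in treated skin, with 11 of 11 higher and none at 0 in all controls. The order within the treated group differed, since osimertinib 2 had the highest marker sum and the lowest Mmp11. The part of the follicle in the Mmp11 difference was not tested.

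The other tested stromelysin overlapped between the groups. Mmp3, stromelysin-1, which cuts many matrix proteins and activates other MMPs, was at 38.5, 38.4 and 73.3 CPM in the controls and 31.4, 20.5 and 67.0 CPM in treated skin. Control 3 and osimertinib 3 were both high and the groups overlapped. Its log2 fold change of -0.34 ± 0.49 (SE, adjusted p = 0.836 in edgeR) turned to 0.04 without control 3. Mmp3 was nonetheless one of the more abundant genes of the set by mean FPKM, at 21.5, after Timp2 at 37.35 and Mmp2 at 26.1.

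Of the 20 Mmp genes, 8 lie side by side in 1 cluster, and their levels differed widely. The cluster spans 402 kb of chromosome 9, 7272514 to 7674979 (GRCm38), with all 8 genes on the plus strand and no other gene of the table inside it. Of the genes in the table it holds, in order, Mmp13, Mmp12, Mmp3, Mmp1a, Mmp10, Mmp8, Mmp27 and Mmp20. Mmp13, the main interstitial collagenase of rodents, was at 0.128, 3.49 and 4.37 CPM in the controls and 17.2, 2.48 and 21.6 CPM in treated skin. Osimertinib 1 and 3 were above all controls, and osimertinib 2 was below 2 of them. Its log2 fold change was 2.37 ± 1.25 (SE, adjusted p = 0.451 in edgeR). Mmp8, the neutrophil collagenase, had 0, 4 and 0 counts in controls and 6, 6 and 97 in treated skin, so that nearly all of its signal came from osimertinib 3. The transcripts of Mmp10, stromelysin-2, stayed under 0.4 CPM in every library. Mmp27 was at 3.63, 2.05 and 2.51 CPM in the controls and 1.36, 0.608 and 2.97 CPM in treated skin, with overlapping groups. Mmp1a, an interstitial collagenase, had counts in control 3 alone, 6 in all, and Mmp20, the tooth enamel protease, 4 counts in osimertinib 2 alone.

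**Figure D3:**
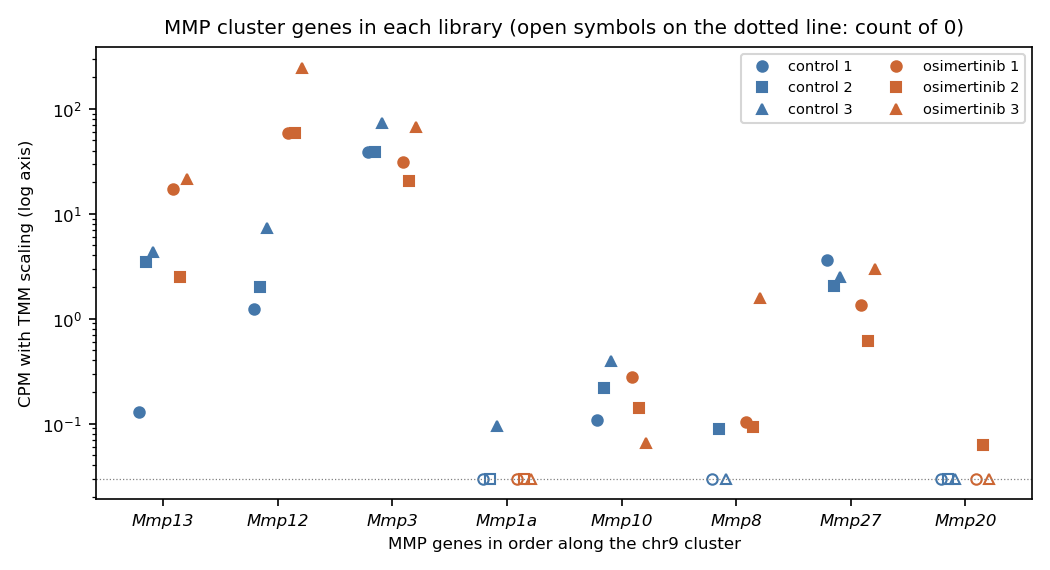
Levels of the 8 Mmp genes of the chromosome 9 cluster in gene order, in CPM with TMM scaling on a log axis, with controls in blue and osimertinib in orange. Mmp12 separates the groups, Mmp3 beside it does not, and open symbols mark counts of 0.

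Promoter sequence was matched for 33 of the 48 genes, as the 250 bases before the start site in RefSeq on GRCm38.p6. AP-1, the Fos and Jun factor that acts downstream of EGFR and is known for driving MMP genes, binds the letters TGAGTCA, which read TGACTCA on the other strand. Either form was found in 5 of the 8 cluster genes and in 0 of the 25 other members with a sequence, against 4.46% of 32851 windows of all genes. A match is a description of letters, not of binding. The windows below are shown because these 4 neighbours hold the motif: Mmp12, whose groups were apart, and Mmp13, Mmp3 and Mmp10, whose groups overlapped. Capitals mark the motif.
Mmp12, chr9:7347124-7347373, plus strand, the second of 2 RefSeq starts: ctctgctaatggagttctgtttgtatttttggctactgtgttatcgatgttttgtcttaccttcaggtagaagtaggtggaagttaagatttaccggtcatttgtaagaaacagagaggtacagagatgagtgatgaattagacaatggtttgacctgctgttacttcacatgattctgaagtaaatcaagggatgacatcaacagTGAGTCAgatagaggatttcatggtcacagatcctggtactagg
Mmp13, chr9:7272264-7272513, plus strand: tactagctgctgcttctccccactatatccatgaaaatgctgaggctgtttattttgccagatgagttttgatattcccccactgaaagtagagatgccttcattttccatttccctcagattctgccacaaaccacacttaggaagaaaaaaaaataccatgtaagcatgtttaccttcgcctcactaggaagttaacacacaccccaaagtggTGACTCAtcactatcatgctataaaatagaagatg
Mmp3, chr9:7445572-7445821, plus strand: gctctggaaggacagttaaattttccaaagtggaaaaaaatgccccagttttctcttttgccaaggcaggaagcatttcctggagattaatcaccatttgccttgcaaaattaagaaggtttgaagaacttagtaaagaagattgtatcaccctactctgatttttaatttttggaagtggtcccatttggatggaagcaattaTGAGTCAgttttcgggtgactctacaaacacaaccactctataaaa
Mmp10, chr9:7502092-7502341, plus strand: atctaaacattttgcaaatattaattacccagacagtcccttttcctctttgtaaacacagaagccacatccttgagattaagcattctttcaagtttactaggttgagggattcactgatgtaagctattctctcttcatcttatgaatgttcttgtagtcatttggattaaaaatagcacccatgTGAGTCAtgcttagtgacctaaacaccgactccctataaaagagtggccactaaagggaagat
The motif began 44, 35, 46 and 63 bases before the start site in Mmp12, Mmp13, Mmp3 and Mmp10. The window of the first Mmp12 start did not hold it. Mmp11 and Timp3, which DESeq2 called in opposite directions, had no match. Their windows are shown for contrast, since they held 63.2% and 65.6% G and C, against 37.2% to 40.4% in the 4 windows above and a median of 52.4% over all genes.
Mmp11, chr10:75932503-75932752, minus strand: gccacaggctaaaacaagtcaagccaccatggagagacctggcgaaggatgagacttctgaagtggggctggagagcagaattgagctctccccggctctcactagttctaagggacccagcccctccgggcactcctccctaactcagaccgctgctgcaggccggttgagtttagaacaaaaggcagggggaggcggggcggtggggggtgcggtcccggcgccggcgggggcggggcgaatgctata
Timp3, chr10:86300162-86300411, plus strand: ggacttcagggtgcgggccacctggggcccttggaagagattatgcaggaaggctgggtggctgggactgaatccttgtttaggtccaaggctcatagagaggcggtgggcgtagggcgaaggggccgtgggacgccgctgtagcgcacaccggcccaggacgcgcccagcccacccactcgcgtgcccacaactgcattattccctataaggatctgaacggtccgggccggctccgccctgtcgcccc

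The gelatinases, which cut denatured collagen and basement membrane collagen, differed little. Mmp2, the constitutive enzyme of dermal fibroblasts, was at 107, 108 and 125 CPM in the controls and 93.0, 69.1 and 117 CPM in treated skin. The groups overlapped, and the log2 fold change was -0.29 ± 0.23 (SE, adjusted p = 0.634 in edgeR). Mmp9, the gelatinase of leukocytes and wound keratinocytes, was at 12.1, 9.41 and 16.0 CPM in the controls and 22.4, 7.29 and 25.3 CPM in treated skin. Osimertinib 1 and 3 exceeded all controls and osimertinib 2 was below all of them (0.55 ± 0.48, SE). Mmp9 at 3.73 and Mmp2 at 26.1 mean FPKM kept their order in every library.

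Membrane-bound MMPs went in both directions. Mmp14, the membrane-type enzyme that cuts collagen at the cell surface and activates the Mmp2 precursor, was at 82.2, 59.5 and 93.6 CPM in the controls and 123, 88.1 and 165 CPM in treated skin. Osimertinib 2 lay below control 3, and the other treated samples lay above all controls. The log2 fold change was 0.68 ± 0.29 (SE, adjusted p = 0.371 in edgeR). Mmp15, a related transmembrane enzyme, was lower, at 27.3, 36.1 and 25.7 CPM in controls against 24.3, 15.3 and 25.3 CPM. The gap between control 3 and osimertinib 3 was narrow, and with DESeq2's size factors or with no filter the groups overlapped.

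Mmp17, which a lipid tail anchors to the membrane, had a mean FPKM below 1 and was not in the main test. It was at 5.75, 5.61 and 5.71 CPM in the controls and 3.50, 1.495 and 3.29 CPM in treated skin. The controls were nearly equal and every treated sample lay below them, with a log2 fold change of -1.03 ± 0.38 (SE, adjusted p = 0.337 in edgeR) where edgeR's filterByExpr, a looser filter on counts, chose the genes. The secreted-and-anchored Mmp23 was at 5.86 to 11.2 CPM in the controls and 5.62 to 8.996 CPM in treated skin. Mmp16 and Mmp25 were under 2 CPM in every library with overlapping groups, and Mmp24 had 28 counts in all.

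Mmp19 and Mmp28 varied mostly by library. Mmp19, an enzyme of dermal and vascular cells, was at 9.38, 12.8 and 8.67 CPM in the controls and 15.6, 8.21 and 32.1 CPM in treated skin, the last value being the highest. Its log2 fold change of 0.86 ± 0.50 (SE) became 0.22 without osimertinib 3. Mmp28, or epilysin, an enzyme that keratinocytes make, ranged from 6.13 to 45.7 CPM among the controls alone, and control 3 was the highest of all libraries. Its log2 fold change of -0.86 ± 0.84 (SE) was 0.12 without control 3.

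The inhibitors split: Timp3 and Timp2 were lower in treated skin and Timp1 had a higher mean. Timp3, which binds to the matrix and also blocks ADAM17 and the proteoglycan-cutting ADAMTS enzymes, was at 234, 168 and 192 CPM in controls. It was at 85.6, 109 and 99.6 CPM in treated skin, and no treated sample came near the lowest control. The means of 198 ± 33.5 and 98.1 ± 11.85 CPM (SD, n = 3 per group) made a 2.02-fold lower level, with a log2 fold change of -1.01 ± 0.20 (SE, adjusted p = 0.19 in edgeR). Leaving out single libraries gave -1.10 to -0.87. The adjusted p ran from 0.000123 in DESeq2 to 0.683 over the 16 alternatives. The gene lies inside Syn3 on the other strand, at chromosome 10, 86300372 to 86349506 (GRCm38). Syn3 was at 0.597 to 2.03 CPM, against 85.6 CPM or more for Timp3.

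Timp2, which inhibits MMPs and also helps Mmp14 to activate Mmp2, was the most abundant member by FPKM. It was at 247.5, 207.5 and 172 CPM in the controls and 139, 102 and 168 CPM in treated skin. Control 3 and osimertinib 3 were close, and the groups overlapped in the authors' FPKM values, which carry no TMM scaling. Its log2 fold change was -0.62 ± 0.26 (SE, adjusted p = 0.358 in edgeR). Fibroblast markers stood beside both genes at 4606, 3670 and 3398 CPM in the controls and 2806, 1543 and 3821 CPM in treated skin, with 3 of 10 markers higher and none at 0. Col1a1, Col1a2 and Col3a1 held most of that sum, and the median log2 fold change of the 10 markers was only -0.04. The part of fibroblasts in the lower Timp2 and Timp3 levels was not tested.

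Timp1, a soluble inhibitor that inflammatory cytokines induce, was at 2.61, 5.50 and 6.04 CPM in controls. In treated skin it was at 17.4, 5.14 and 31.1 CPM. Osimertinib 1 and 3 were above all controls and osimertinib 2 was among them. The log2 fold change was 1.92 ± 0.68 (SE, adjusted p = 0.317 in edgeR), with 1.26 without osimertinib 3 and 2.36 without osimertinib 2. Timp4, an inhibitor of more restricted distribution, was at 18.8, 21.5 and 5.56 CPM in the controls and 5.84, 7.06 and 16.4 CPM in treated skin, with overlapping groups (-0.65 ± 0.61, SE). Control 3, lowest for Timp4, was also lowest of all libraries in muscle markers and in adipocyte markers, at 531 CPM. Osimertinib 1, nearly as low for Timp4, held 77560 CPM of muscle markers and 2373 CPM of adipocyte markers. The part of muscle and fat in the Timp4 levels was not tested.

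The make-up of the TIMP pool differed more than its size. Summed FPKM of the 4 inhibitors was 85.0, 56.9 and 71.5 in controls and 55.85, 42.6 and 80.8 in treated skin, with overlap. Timp1 made up 2.97%, 7.37% and 8.98% of that sum in controls and 29.3%, 12.4% and 37.6% in treated skin, so each treated share was above each control share. Timp1 itself overlapped, at 5.30 FPKM in osimertinib 2 against 2.52 to 6.425 FPKM in controls. The summed FPKM of the inhibitors was lowest in osimertinib 2. Timp2 remained the largest part in every library, at 46.25% to 64.6%. The sum over the 20 Mmp genes was 76.25, 60.4 and 119.5 FPKM in controls and 93.6, 66.5 and 157 FPKM in treated skin. Mmp12 made up 0.193% to 0.796% of it in controls and 7.29%, 11.25% and 18.9% in treated skin. The ratio of the Mmp sum to the Timp sum was 0.897, 1.06 and 1.67 in controls and 1.68, 1.56 and 1.94 in treated skin, and control 3 lay within the treated range.

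**Figure D4:**
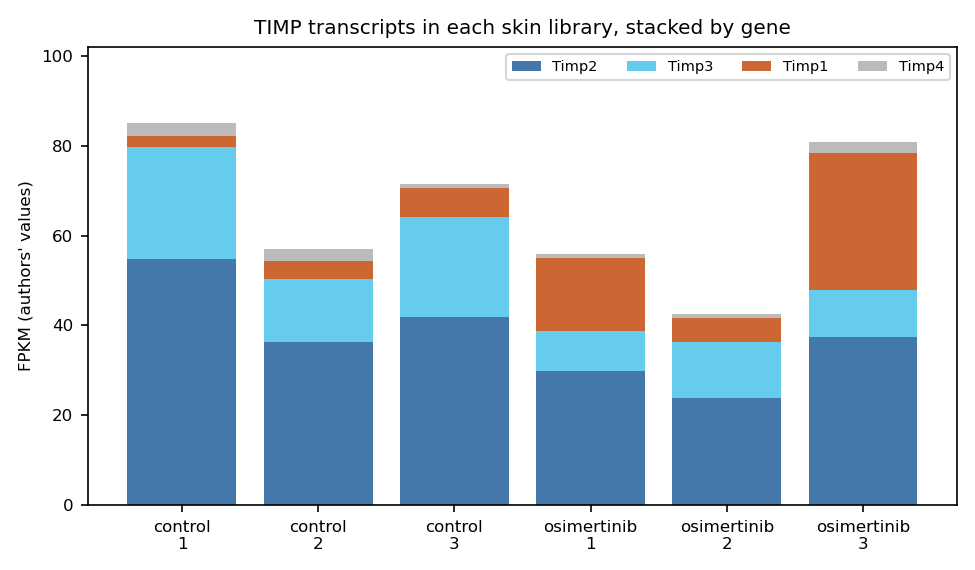
FPKM of the 4 TIMP genes in each library, stacked in bars from 0, with controls at left and osimertinib at right. Timp1 takes 2.97% to 8.98% of the bar in controls and 12.4% to 37.6% in treated skin, while the total heights and the FPKM of Timp1 itself overlap.

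The 2 tested ADAMTS enzymes that trim procollagen had lower means in treated skin. Adamts14 was at 48.1, 28.6 and 79.5 CPM in the controls and 32.1, 7.57 and 9.86 CPM in treated skin. Osimertinib 2 and 3 were far below the controls and osimertinib 1 was within their range. The log2 fold change was -1.66 ± 0.66 (SE, adjusted p = 0.343 in edgeR), -2.58 without osimertinib 1 and -1.21 without control 3. Adamts2, whose loss makes skin fragile, was at 40.5, 33.9 and 24.3 CPM in the controls and 22.9, 17.1 and 40.9 CPM in treated skin, with overlapping groups. Adamts3, of the same kind, had 8 counts in the controls together and 43 in treated skin.

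Proteoglycan-cutting ADAMTS genes all overlapped between the groups. Adamts1, which cuts versican and is the highest ADAMTS member by mean FPKM at 9.76, was at 55.5, 36.0 and 89.15 CPM in the controls and 41.3, 31.8 and 103.5 CPM in treated skin, with an edgeR log2 fold change of -0.03 ± 0.54 (SE) whose sign varied among the alternatives. Adamts5, a main aggrecanase, was at 16.6, 17.6 and 11.9 CPM in the controls and 14.95, 8.58 and 24.15 CPM in treated skin. Adamts15, a versican-cutting relative, lay just under the filter with a mean of 0.999 FPKM, where Adamts5 lay just above it with 1.22. It was at 6.33, 10.5 and 3.20 CPM in the controls and 17.4, 10.2 and 26.0 CPM in treated skin, so only osimertinib 2 fell among the controls. Adamts9, which cuts versican as well, was at 7.28 to 8.73 CPM in the controls and 8.67, 12.3 and 19.1 CPM in treated skin, with osimertinib 1 just below control 1. Adamts4, Adamts8 and Adamts20 were at 0.236 to 6.13 CPM in all libraries and their groups overlapped. Their shared substrate versican (Vcan) was at 6.57, 8.37 and 5.96 CPM in the controls and 26.2, 15.6 and 40.4 CPM in treated skin, with each treated sample above each control (log2 fold change 1.98 ± 0.38, SE, adjusted p = 0.189 in edgeR).

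Of the 9 remaining ADAMTS genes, 6 were higher in every treated sample than in every control, and 3 overlapped. The share that was higher in this way was 7.53% of all genes with a count and 10.9% of genes kept by filterByExpr. Adamts10 alone of the 9 passed the main filter, and Adamts13 and Adamts16 rest on 54 and 24 counts. Adamts13 passed filterByExpr through its treated counts, so its being higher was in part required by that filter. Adamts10, which binds fibrillin, was at 13.2, 13.4 and 10.7 CPM in the controls and 15.95, 19.4 and 21.5 CPM in treated skin. The difference was small and even, with a log2 fold change of 0.61 ± 0.20 (SE, adjusted p = 0.299 in edgeR). Its close relative Adamts6 was at 0.475, 0.663 and 0.898 CPM in the controls and 1.53, 1.37 and 1.56 CPM in treated skin. Adamts17 was at 1.41, 1.06 and 1.43 CPM in the controls and 3.17, 1.54 and 2.53 CPM in treated skin. Adamts6 and Adamts17 were below the main filter, and where filterByExpr chose the genes their log2 fold changes were 1.14 ± 0.39 and 0.90 ± 0.39 (SE, adjusted p = 0.31 and 0.389 in edgeR).

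Adamts18, a secreted enzyme of developing epithelia, had the clearest difference below the filter. It had 38 counts over the 3 controls and 359 over the 3 treated samples. Its level was 0.110, 0.309 and 0.284 CPM in the controls and 2.55, 1.37 and 2.01 CPM in treated skin, 8.43-fold higher. In edgeR with filterByExpr its log2 fold change was 3.08 ± 0.54 (SE, adjusted p = 0.163). Adamts13, the protease of von Willebrand factor, had 3, 0 and 4 counts in controls and 22, 14 and 11 in treated skin, and Adamts16 had 0 in each control and 4, 14 and 6 in treated skin. Adamts7, Adamts12 and Adamts19 overlapped between the groups at 0.205 to 6.86 CPM.

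ADAMTS-like genes were level or lower. Adamtsl4, a fibrillin-binding protein of microfibrils, was at 50.95, 74.2 and 43.3 CPM in the controls and 26.15, 33.05 and 30.3 CPM in treated skin. Every treated sample was below every control. The log2 fold change was -0.91 ± 0.24 (SE, adjusted p = 0.253 in edgeR), and it was -0.63 without control 2. Adamtsl5, another microfibril protein, was at 47.55 to 54.1 CPM in the controls and 38.7 to 52.4 CPM in treated skin. Adamtsl3 was low, at 0.694, 0.928 and 0.741 CPM in the controls and 0.517, 0.374 and 0.326 CPM in treated skin, again without overlap. Adamtsl1 and Adamtsl2 overlapped. Summed FPKM of the 5 genes was 19.8, 20.15 and 19.6 in controls and 14.9, 15.2 and 14.6 in treated skin, with Adamtsl4 and Adamtsl5 making up nearly all of it.

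**Figure D5:**
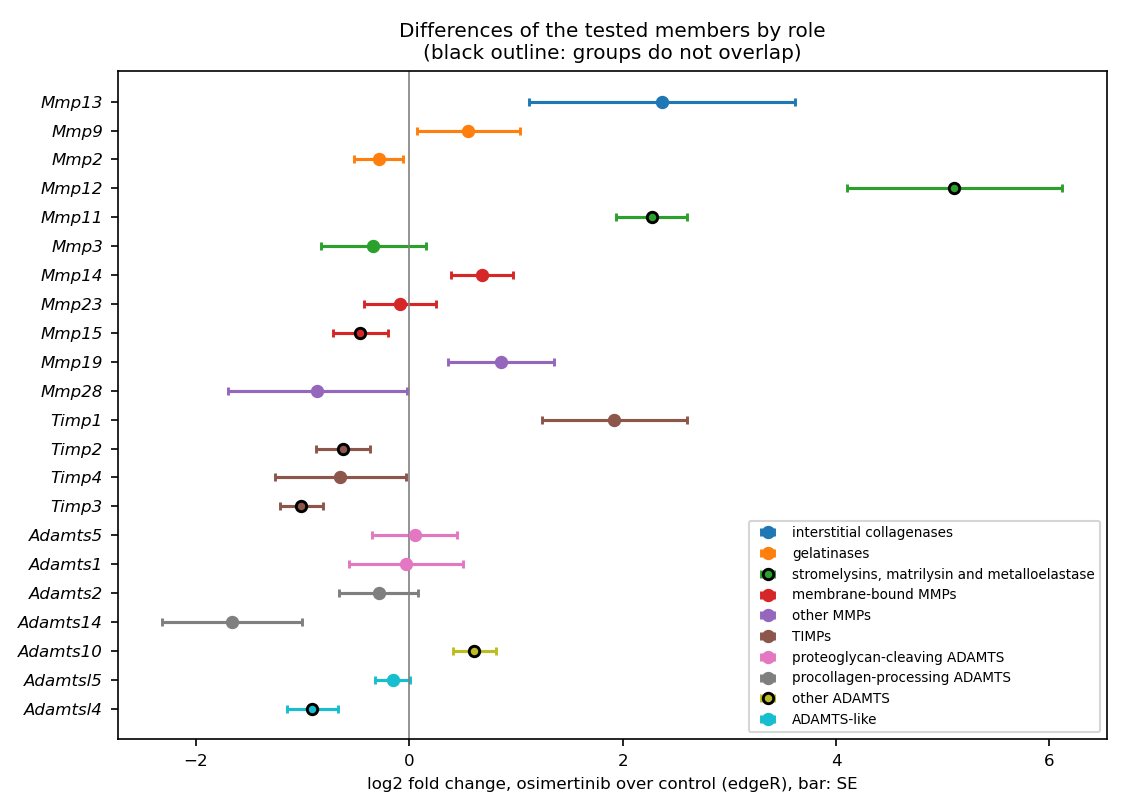
Log2 fold changes of the 22 tested genes, osimertinib over control, from edgeR with SE as bars, grouped and coloured by role. Black outlines mark the 7 genes whose groups do not overlap, with Mmp12 at 5.11 and Timp3 at -1.01 among them.

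In all, 26 of the 48 genes were below the filter and were not in the main test. Of these, 7 had every treated sample above every control and 2 had every treated sample below, against 4.71% and 5.75% of all genes with a count below the filter, many of which have too few counts to separate. Mmp8, Adamts3 and Adamts16 are among the 7 through gaps of few counts. Their lowest treated counts were 6, 6 and 4, and their highest control counts 4, 5 and 0. The other 17 overlapped. The looser filter kept 20 of the 26, and the groups of 14 of these overlapped. In the others, Adamts6, Adamts13, Adamts17 and Adamts18 were higher and Mmp17 and Adamtsl3 lower without overlap, which is 6 of 20, against 20.0% of all genes in that range in either direction. Adamts13, with 3, 0 and 4 counts in controls and 22, 14 and 11 in treated skin, entered the looser filter through its treated values. Its being higher was thus in part required by that filter. The smallest adjusted p among them was 0.163 in edgeR, so none was called. The 6 genes that also failed the looser filter were Adamts3, Adamts16, Mmp1a, Mmp8, Mmp20 and Mmp24.

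Across these genes the treated libraries often fell in 1 order. Osimertinib 3 was the highest treated sample in 17 of the 22 tested genes, against 31.9% of all genes tested. Osimertinib 2 was the lowest in 18 of 22, against 39.7% of all genes. Osimertinib 2 was also lowest of the treated samples in summed fibroblast, macrophage, neutrophil, endothelial (147 CPM) and pericyte (240 CPM) markers, and highest in hair markers. Osimertinib 3 was highest of them in each of the first 5. Among the controls, each library was the highest in 4 to 10 of the 22. The part of cell content in this order was not tested.

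Other genes of matrix turnover were described from 9 lists of 98 genes, of which 65 were tested. edgeR called 0 of the 65, with 5 higher and 11 lower at an unadjusted p below 0.05 (14.0% of all genes tested in either direction), and DESeq2 called 3 higher and 7 lower (3.41% and 2.95% of all genes). The elastic fibre and microfibril list had 12 of 15 genes with higher means, a median log2 fold change of 0.41, and 2 called in each direction by DESeq2. Its largest difference was in Ltbp2, a microfibril-associated protein, at 36.9, 25.5 and 44.3 CPM in the controls and 9.27, 7.15 and 9.81 CPM in treated skin (-2.02 ± 0.27, SE, adjusted p = 0.128 in edgeR). Efemp1, a fibulin, was at 60.8 ± 23.8 against 21.8 ± 5.35 CPM, and Emilin1, an elastic fibre glycoprotein, at 5.23 ± 1.17 against 11.5 ± 3.62 CPM (SD, n = 3 per group). Col1a1, Col1a2 and Col3a1, the main dermal collagens, had lower means, such as 885 ± 164 against 555 ± 227 CPM for Col1a1, and DESeq2 called none of the 6 fibrillar collagens tested. Pcolce2, an enhancer of procollagen cleavage, was at 20.9, 13.1 and 12.3 CPM in the controls and 7.87, 4.46 and 7.97 CPM in treated skin. Bmp1, a procollagen C-proteinase, and its enhancer Pcolce overlapped between the groups, with means of 75.1 against 92.2 and 62.3 against 49.0 CPM.

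Of 17 basement membrane genes tested, 10 had lower means, with a median log2 fold change of -0.15. Col4a5, a collagen IV chain, was at 26.6, 15.5 and 28.1 CPM in the controls and 13.2, 11.7 and 9.09 CPM in treated skin, and was the 1 gene of the list that DESeq2 called. Lama3 and Lamb3, chains of the laminin that anchors epidermis to dermis, averaged 77.0 and 223 CPM in the controls and 32.3 and 89.7 CPM in treated skin. For both, the groups overlapped, with osimertinib 1 above control 2. Basal keratinocyte markers stood beside these at 9701 to 31020 CPM in the controls and 9391 to 17710 CPM in treated skin, and their part was not tested. Among activators and the plasminogen system, Pcsk6, a furin-like convertase, was at 39.5, 24.3 and 39.1 CPM in the controls and 19.7, 15.4 and 12.5 CPM in treated skin. Plaur, the urokinase receptor, was at 3.88 ± 1.13 against 8.42 ± 4.97 CPM (SD, n = 3 per group). Plat, a plasminogen activator, averaged 7.92 against 10.4 CPM, and the groups of both overlapped. Of the other protease inhibitors, Spock2, a testican, averaged 22.7 ± 7.19 against 9.52 ± 1.43 CPM, with all treated samples below the controls. Serpine2, an inhibitor of serine proteases, went the other way, at 53.2, 118.6 and 24.6 CPM in the controls and 120.6, 121.4 and 150.0 CPM in treated skin, without overlap. Reck, a membrane-bound MMP inhibitor, averaged 7.67 ± 2.85 against 8.31 ± 2.16 CPM. Of the ADAM sheddases, Adam9 and Adam15 had all treated values below all control values, at 28.6 ± 3.07 against 44.5 ± 7.00 CPM for Adam9. Adam17, which releases TNF, averaged 39.1 against 51.2 CPM, with overlap. Of 5 tested inducers of MMP transcription, 3 had a log2 fold change above 0 and 2 below, and the groups overlapped in all 5. Il6, Il1b and Tnf were highest in osimertinib 3. Il6, a cytokine, was at 22.1 CPM there, at 3.29 and 2.09 CPM in osimertinib 1 and 2, and at 0.619 to 2.41 CPM in controls.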

How the data were processed

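RNA-seq libraries of mouse skin were made from poly(A) RNA with strand marking by dUTP and with unique molecular identifiers, per the labels' protocols. The submitters' processing notes name cutadapt 1.9 and GRCm38. Aligner, counter, annotation and use of strand were not given in the sources used here, so reads of overlapping genes on opposite strands may be mixed. The deposited table holds raw counts and the authors' FPKM per gene. Another 6 value columns match no sample and were not used. Genes averaging 1 FPKM or more across the 6 libraries (13498 of 33308) were tested with edgeR 4.0.16's quasi-likelihood test in R 4.3.3, with TMM scaling and Benjamini-Hochberg adjustment, osimertinib over control, 3 samples each. Adjusted p-values are over all genes tested. CPM uses the same scaling, and FPKM is as deposited. DESeq2 1.42.0 and limma 3.58.1 were among 16 alternatives. Of 51 symbols listed by role, 3 (Mmp1b, Mmp7 and Mmp21) have no row in the deposited table and are not analysed here. Genes named in full are those of the 22 tested that did not overlap between groups, had the 10 smallest p-values or the 5 highest mean FPKM. In the pathway lists the 3 smallest p-values were named. The genes and lists were chosen with earlier results of these data known. On simulated counts for the 13498 genes, edgeR recovered 2.99%, 35.8% and 81.8% of 2-, 4- and 8-fold changes with 3 false calls, and DESeq2 14.9%, 85.1% and 93.9% with 67.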

Additional observations from a re-analysis of the deposited data

How the results depend on the processing

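In edgeR no gene of 13498 passed the adjusted threshold, and 1883 had an unadjusted p below 0.05. DESeq2 called 858, limma after quantile normalization 3, limma on log2(FPKM + 1) 17, limma on log2(FPKM + 0.1) 2, and edgeR with a muscle score as covariate 1. Of the metalloproteinase and inhibitor genes DESeq2 called 3 and the other settings 0. Simulated DESeq2 calls included 67 false ones. The count of genes without overlap was 17 of 48 with no filter (15.0% of all genes) and 15 of 42 with filterByExpr (20.4%), against 7 of 22 (20.7%). It was 7 to 12 of 22 when single libraries were left out, where the share of all genes was 23.5% to 46.3%. The highest share, 46.3% without control 2, stood beside 8 of 22. The median log2 fold change, -0.12 over the 22, was 0.37 over the 48 with no filter and 0.15 over the 42 with filterByExpr. Over the 22 it was 0.03 without osimertinib 2 and 0.04 with the muscle covariate applied without control 3. It was -0.42 to 0.03 when single libraries were left out. Over the 16 alternatives 206 of 208 values of the 13 genes named by rule kept their direction. The exceptions were of Mmp3, at 0.10 under the muscle covariate applied without control 3, and at -0.92 to 0.04 when single libraries were left out, 0.04 without control 3. The cause was not tested. With the replicate number as a block, edgeR called 0 genes and the median was -0.15. Same-numbered samples correlated at 0.222, 0.029 and -0.115 in their deviations from the group means. Control 1 correlated best with osimertinib 1, and controls 2 and 3 with osimertinib 3 and 2. With so few samples per group, these values cannot decide whether the numbers mark pairs. The 26 genes below the FPKM filter had 4 to 4288 counts in all, so depth limits mainly the lowest of them, 4 of which had at most 28.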
